A study of Mus musculus with 4 samples.

Results

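The 10 genes described here encode enzymes that put double bonds into fatty acids (Scd1, Scd2, Fads1, Fads2 and Fads3) or lengthen their carbon chains (Elovl1, Elovl2, Elovl3, Elovl5 and Elovl7). They were chosen by gene symbol from the Scd, Fads and Elovl families. Elovl6, Elovl4, Scd3, Scd4 and Fads6 are not among them and are treated as other genes of these families. All 10 were found among the 25655 genes of the deposited table, and all 10 were among the 12967 genes that passed the filter on low counts. Liver polyA RNA was sequenced from male mice fed a high-fat diet (HFD) for 12 weeks from 5 weeks of age, with 2 libraries of wild type mice (HFD-WT, ADAR2+/+) and 2 of ADAR2 knockout mice (HFD-KO, ADAR2-/-). Mice of either genotype were homozygous for GluR-B R/R, an edited form of a glutamate receptor subunit without which the knockout dies young, on a B6129S background, so the wild type mice were not free of engineered alleles. The knockout was present in the whole body, and the question was how liver expression differed between genotypes on the HFD. A legend of the study counts more mice per group than there are libraries, but whether a library pooled several mice is not given in the sources used here, so p-values measure only the spread between these libraries. Where single livers are spoken of below, each stands for a library.

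Fatty acyl chains are built by fatty acid synthase and are then remodelled in the endoplasmic reticulum. Stearoyl-CoA desaturases (Scd) make monounsaturated from saturated chains, a step that feeds triglyceride storage in the liver. The Fads enzymes add further double bonds to dietary essential fatty acids, and the Elovl enzymes catalyse the rate-limiting condensation of each elongation round, with Elovl2 and Elovl5 acting on polyunsaturated chains and Elovl1, Elovl3, Elovl6 and Elovl7 mainly on saturated and monounsaturated ones.

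The Scd genes are close copies of each other, which bears on how reads can be assigned to them, and the longest stretch of coding sequence that Scd1 and Scd2 share is shown for that reason. It was read from GENCODE M21 transcripts (GRCm38) and spans 147 identical bases, printed with 15 bases on each side, and capitals mark the bases that differ.
Scd1: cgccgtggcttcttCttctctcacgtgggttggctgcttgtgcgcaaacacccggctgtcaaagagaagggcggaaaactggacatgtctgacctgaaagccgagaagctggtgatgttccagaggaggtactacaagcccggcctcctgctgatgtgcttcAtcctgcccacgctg
Scd2: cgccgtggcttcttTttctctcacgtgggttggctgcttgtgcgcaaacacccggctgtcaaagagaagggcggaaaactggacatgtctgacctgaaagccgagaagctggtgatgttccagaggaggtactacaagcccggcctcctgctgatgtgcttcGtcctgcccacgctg
The identical bases lie at positions 523 to 669 of the Scd1 coding sequence and 532 to 678 of the Scd2 coding sequence, counted from the start codon, and the printed bases at 508 to 684 and 517 to 693. Over their whole coding sequences Scd1 and Scd2 were 90.4% identical. The Fads genes were less alike, with 67.7% identity between Fads1 and Fads2 and 71.1% between Fads2 and Fads3, and Elovl2 and Elovl5 were 66.4% identical. The most similar 100 bases of Fads1 and Fads2 held 17 differences, so a read of that length can tell these genes apart.
Fads1: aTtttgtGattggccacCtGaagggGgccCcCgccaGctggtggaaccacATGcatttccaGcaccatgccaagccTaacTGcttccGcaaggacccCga
Fads2: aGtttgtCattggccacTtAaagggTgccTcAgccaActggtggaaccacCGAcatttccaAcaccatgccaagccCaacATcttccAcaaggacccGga

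The elongases share a short histidine box, which is held to form their catalytic centre, and its coding sequence is shown with its flanks to compare the members. Capitals mark the 3 histidine codons of the box in 45 bases from the same transcripts.
Elovl1: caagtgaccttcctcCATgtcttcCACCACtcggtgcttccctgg
Elovl7: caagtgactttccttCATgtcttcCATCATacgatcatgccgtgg
Elovl2: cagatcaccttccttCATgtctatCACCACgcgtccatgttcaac
Elovl5: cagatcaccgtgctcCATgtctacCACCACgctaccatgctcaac
Elovl3: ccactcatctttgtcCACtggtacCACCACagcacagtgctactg
Elovl6: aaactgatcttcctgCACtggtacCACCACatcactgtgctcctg
Across these 45 bases Elovl2 and Elovl5 differed at 7, Elovl3 and Elovl6 at 9, and Elovl1 and Elovl7 at 10. All other pairs differed at 17 to 24 of the 45 bases. The box of 15 bases alone did not group the genes in this way. It was the same in Elovl3 and Elovl6, but Elovl5 differed from Elovl2 and from Elovl1 at 1 base each, and Elovl1 differed from Elovl2 and from Elovl7 at 2 each.

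The libraries held 28691330 and 26907857 counts in HFD-WT and 26540624 and 24480798 in HFD-KO, and 3 counts, taken as the floor, correspond to 0.104 to 0.126 CPM, the counts of a gene scaled to a common library size. CPM values given here were scaled by edgeR's TMM method, and genotypes were compared by its quasi-likelihood test, with p-values adjusted by the Benjamini-Hochberg method over all genes tested. A log2 fold change is HFD-KO over HFD-WT, and an exact permutation test of 2 libraries against 2 cannot give a p below 0.333. Adarb1, the gene of ADAR2, had 15.68 and 19.81 CPM in HFD-WT and 6.23 and 9.547 CPM in HFD-KO, so both knockout libraries were lower while reads on the gene remained. Its adjusted p was 0.159 by edgeR, but it passed 0.05 under 5 of 12 alternative settings, with an adjusted p = 0.000416 by DESeq2, 0.00251 by edgeR with no filter on low counts and 0.04 by edgeR with a replicate block, and also with either knockout library left out. The number of called genes rested on single libraries: leaving out HFD-KO replicate 1 gave 705 called genes and leaving out HFD-KO replicate 2 gave 411, against 10 with all libraries. Leaving out HFD-WT replicate 2 gave 0 called genes.

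Scd1 was by far the most abundant of the 10 transcripts in every library, and Scd1, Scd2, Fads3 and Elovl7 were lower in both HFD-KO livers than in both HFD-WT livers. Elovl2 was higher in both HFD-KO livers, and the other 5 genes overlapped between genotypes in TMM-scaled CPM. By the deposited TPM, which are not scaled by TMM, Elovl1 and Elovl5 were also lower in both HFD-KO livers, and with library size alone as scaling Elovl5 was. None of the 10 genes passed an adjusted p under 0.05 by edgeR (0.0771% of all genes tested did), and DESeq2's Wald test and limma voom also called 0 of them. At an unadjusted p under 0.05, edgeR gave 1 gene, Scd2, which was lower (8.98% of all genes tested in either direction and 4.73% lower in HFD-KO). DESeq2 and voom each gave 2, Scd1 and Scd2, against 671 and 1155 of all 12967 genes tested in either direction.

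The levels of the genes were compared by the deposited TPM, which accounts for gene length. Scd1 had a mean of 3067 TPM over the 4 libraries (2140 to 3639) and was 6.7 times as abundant as Fads2, the next gene, at 457.5 TPM. Elovl5 followed at 366.6 TPM, Fads1 at 226.6 TPM, Elovl2 at 193.0 TPM, Elovl3 at 75.36 TPM and Elovl1 at 33.16 TPM. Scd2, Fads3 and Elovl7 formed a low group at 2.73, 1.033 and 0.5812 TPM. The ranges over libraries of neighbouring genes in this order were separate, except that Fads1 overlapped Elovl2 and Fads3 overlapped Elovl7. By deposited TPM, Scd1 ranked between 39 and 63 among all genes of a library. In the plot of levels by library, the genes of the polyunsaturated pathway (Fads1, Fads2, Elovl2 and Elovl5) lay together below Scd1.

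**Figure D1:**
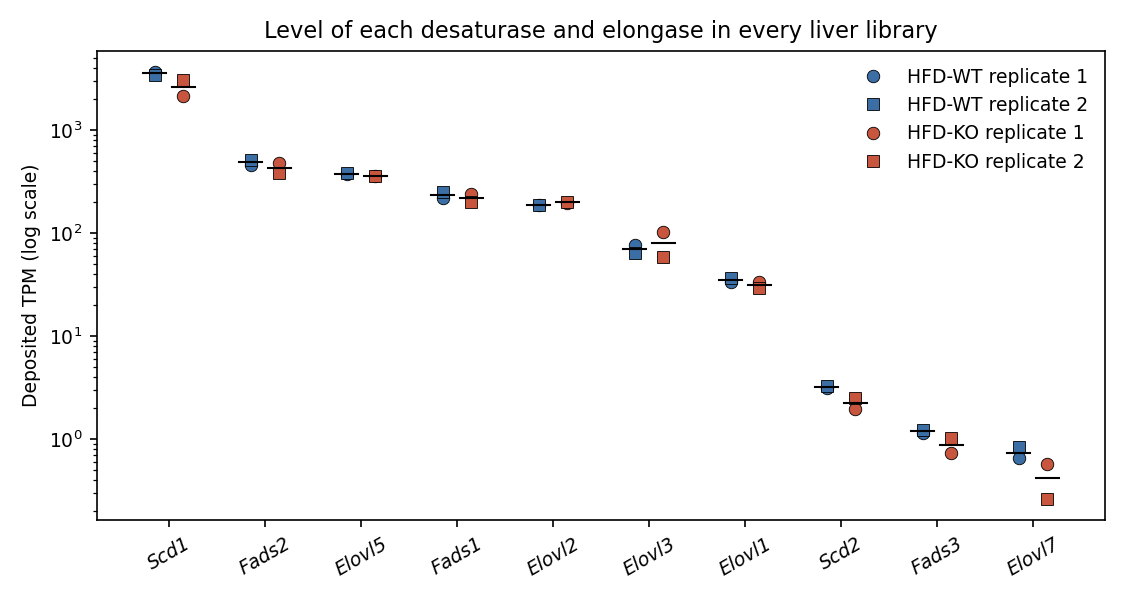
Deposited TPM (log axis) of the 10 genes, ordered by mean level, with 1 point for each library (circle, replicate 1; square, replicate 2; blue, HFD-WT; red, HFD-KO) and a bar at each group mean. Scd1 stands at 2140 to 3639 TPM, while Scd2, Fads3 and Elovl7 lie below 3.3 TPM.

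Scd1 encodes the main stearoyl-CoA desaturase of the liver (ENSMUSG00000037071, chr19:44382894-44396318, minus strand, GRCm39). The HFD-WT livers held 8943 and 8234 CPM, against 5496 and 7641 CPM in HFD-KO, and these values rest on 258999, 226492, 144681 and 182489 counts. The groups did not overlap, but HFD-KO replicate 1 stood at 64.0% of the HFD-WT mean and replicate 2 at 89.0%. The log2 fold change was -0.39 (SE 0.18, 95% interval -0.805 to 0.03, adjusted p = 0.588 by edgeR). Scd1 took 0.9027% and 0.8417% of all counts in HFD-WT and 0.5451% and 0.7454% in HFD-KO. Without HFD-KO replicate 2 the log2 fold change was -0.645 with an adjusted p = 1.92e-05 by edgeR, in a fit that assumed the lone knockout library to vary like the HFD-WT libraries. Without HFD-KO replicate 1 it was -0.17.

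Scd2, the isoform known mainly from brain and other tissues outside the liver (ENSMUSG00000025203, chr19:44282113-44295303, plus strand), lies 87.6 kb from Scd1. Its level was 8.667 and 8.834 CPM in HFD-WT and 5.584 and 7.034 CPM in HFD-KO, from 251, 243, 147 and 168 counts. Both knockout libraries were lower, at 63.8% and 80.4% of the HFD-WT mean. The log2 fold change was -0.47 (SE 0.155, 95% interval -0.84 to -0.11, unadjusted p under 0.05, adjusted p = 0.439 by edgeR), and the adjusted p did not go below 0.0597 under any of 12 alternative settings.

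Scd2 followed Scd1 closely across libraries. The ratio of Scd1 to Scd2 TPM was 1153 and 1041 in HFD-WT and 1099 and 1213 in HFD-KO, with overlapping groups (exact permutation p = 0.667). The Scd2 counts equalled 0.0969%, 0.107%, 0.102% and 0.0921% of the Scd1 counts in the 4 libraries, while 0.982% of the 100-base windows of Scd1 transcripts also occurred in Scd2 transcripts. The shared windows were thus a larger share of Scd1 than the Scd2 counts were of its counts, and the Scd2 values are uncertain. These windows stand for single reads, while the libraries were read as pairs, and all of them lay in 1 stretch of 147 bases. The share of read pairs that match both genes was not measured. How reads with several alignments were counted is not given in the sources used here, and their part in the Scd2 values was not tested. Scd3, which shared more of the Scd1 windows (1.76%), had at most 1 count in any library, as had Scd4. The Fads and Elovl genes of the set shared 0 windows with any other gene.

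Fads2 and Fads1 encode the desaturases that act early and late in the synthesis of arachidonic and other polyunsaturated fatty acids. Fads2 (ENSMUSG00000024665, chr19:10040129-10079110, minus strand) had 738.6 and 792.9 CPM in HFD-WT and 798.1 and 624.6 CPM in HFD-KO. The knockout libraries lay on either side of the HFD-WT values, and the log2 fold change was -0.11 (SE 0.13, 95% interval -0.41 to 0.20, adjusted p = 0.851 by edgeR). Fads1 (ENSMUSG00000010663, chr19:10160252-10174241, plus strand) had 409.6 and 460.1 CPM in HFD-WT and 463.1 and 378.5 CPM in HFD-KO.

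Fads1 also had 1 knockout library above and 1 below both HFD-WT values, and its log2 fold change was -0.05 (SE 0.12, 95% interval -0.33 to 0.23, adjusted p = 0.936 by edgeR). Fads1 and Fads2 lie 81.1 kb apart and kept a narrow ratio. Fads1 was 0.4742 and 0.4961 of Fads2 by TPM in HFD-WT and 0.4962 and 0.5182 in HFD-KO, where the closest libraries of the groups were 0.4961 and 0.4962. The groups thus did not overlap by a margin far below the spread between replicates (exact permutation p = 0.333).

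Fads3, a related gene 2.65 kb from Fads2 (ENSMUSG00000024664, chr19:10018933-10037474, plus strand), was scarce. It had 2.141 and 2.218 CPM in HFD-WT and 1.406 and 1.926 CPM in HFD-KO, from 62, 61, 37 and 46 counts. Both knockout libraries were lower, and replicate 1 stood at 64.5% of the HFD-WT mean, near the share of Scd1 and Scd2 in the same library. This gave a log2 fold change of -0.39 (SE 0.27, 95% interval -1.03 to 0.25, adjusted p = 0.713 by edgeR).

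Among the elongases of polyunsaturated chains, Elovl5 had the log2 fold change nearest 0 and Elovl2 was the only one of the 10 genes higher in both knockout livers. Elovl5 (ENSMUSG00000032349, chr9:77824646-77891801, plus strand) had 561.2 and 557.9 CPM in HFD-WT and 562.8 and 544.8 CPM in HFD-KO. Its log2 fold change was -0.01 (SE 0.09), and the 95% interval of -0.22 to 0.19 bounds the difference that these libraries allow (adjusted p = 0.976 by edgeR). In deposited TPM it was 372.9 and 379.9 in HFD-WT and 357.8 and 355.8 in HFD-KO, so on that scale both knockout livers were lower.

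Elovl2, which extends the longer polyunsaturated chains on the way to docosahexaenoic acid (ENSMUSG00000021364, chr13:41335857-41373881, minus strand), had 372.8 and 365.6 CPM in HFD-WT and 409.7 and 405.6 CPM in HFD-KO. The knockout libraries stood at 111% and 110% of the HFD-WT mean, the closest pair of knockout values relative to that mean among the 10 genes. For Elovl2 the log2 fold change was 0.14 (SE 0.08, 95% interval -0.05 to 0.335, adjusted p = 0.668 by edgeR). The ratio of Elovl5 to Elovl2 TPM was 1.993 and 2.02 in HFD-WT and 1.819 and 1.778 in HFD-KO. This ratio was lower in both knockout livers (difference of log2 ratios -0.158, exact permutation p = 0.333, the smallest possible), and the gap between groups was larger than the spread within either. Over the 3 ratios compared, the adjusted p was 0.5 for this ratio and for Fads1 to Fads2, and 0.67 for Scd1 to Scd2 (exact permutation test, Benjamini-Hochberg).

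**Figure D2:**
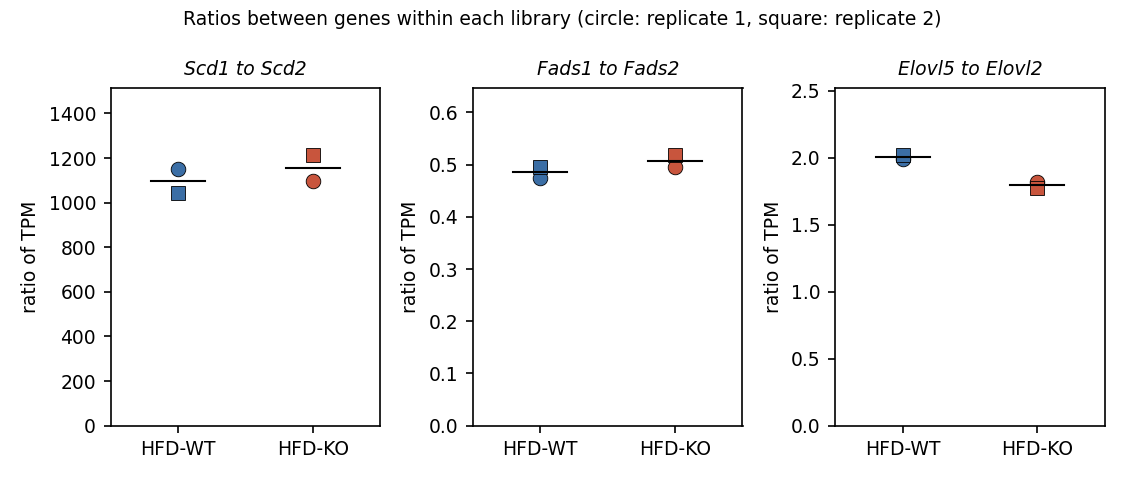
Ratio of deposited TPM between 2 genes in each library, with bars at the group means and axes from 0. The Elovl5 to Elovl2 ratio is 1.993 and 2.02 in HFD-WT and 1.819 and 1.778 in HFD-KO, while the Scd1 to Scd2 ratio overlaps between groups.

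Elovl3, Elovl1 and Elovl7 act mainly on saturated and monounsaturated chains. Elovl3, known for daily rhythm and hormonal control in mouse liver (ENSMUSG00000038754, chr19:46120336-46124133, plus strand), had 75.69 and 61.66 CPM in HFD-WT and 106.9 and 58.95 CPM in HFD-KO. The knockout livers held both the highest and the lowest value, at 156% and 85.8% of the HFD-WT mean. For Elovl3 the log2 fold change was 0.27 (SE 0.25, 95% interval -0.31 to 0.85, adjusted p = 0.787 by edgeR). Its sign rested on 1 library: without HFD-KO replicate 2 it was 0.64 (adjusted p = 0.00024 by edgeR), and without HFD-KO replicate 1 it was -0.22. As for Scd1, these fits hold a lone knockout library that is assumed to vary like the HFD-WT libraries.

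Of the 17 clock genes tested, 5 had an unadjusted p under 0.05, 3 of them higher and 2 lower in HFD-KO (8.98% of all genes tested in either direction), and 0 passed an adjusted p under 0.05 by edgeR. Nr1d1, which encodes a repressor of the clock, had 82.84 and 73.36 CPM in HFD-WT and 116.5 and 100.2 CPM in HFD-KO. It was higher in both knockout livers (adjusted p = 0.257 by edgeR and 0.0389 by DESeq2). For other clock genes, among them Arntl and Npas2, the knockout libraries lay on either side of HFD-WT, as for Elovl3. Arntl had 6.216 and 4.981 CPM in HFD-WT and 4.331 and 6.783 CPM in HFD-KO. Npas2 had 1.657 and 1.309 CPM in HFD-WT and 0.6078 and 2.094 CPM in HFD-KO. Ciart, another clock repressor, had 18.13 and 22.18 CPM in HFD-WT and 14.32 and 15.32 CPM in HFD-KO. Cry1 and Bhlhe41, also repressors, had log2 fold changes of -0.45 and 0.64 (adjusted p = 0.467 and 0.536 by edgeR). The part of the time of collection in the Elovl3 values was not tested.

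Elovl1, which makes very long saturated chains for sphingolipids (ENSMUSG00000006390, chr4:118285290-118290150, plus strand), had 32.46 and 35.05 CPM in HFD-WT and 33.81 and 29.10 CPM in HFD-KO. HFD-KO replicate 1 lay within the HFD-WT values in CPM, though just below both in deposited TPM (33.17 against 33.29 and 36.83), and the log2 fold change was -0.10 (SE 0.10, 95% interval -0.34 to 0.13, adjusted p = 0.807 by edgeR). Elovl1 overlaps Cdc20 on the opposite strand by 53 bases, and Cdc20 had 14 to 43 counts against 695 to 964 for Elovl1. Elovl3 overlaps Pitx3 by 10 bases, and Pitx3 had at most 3 counts. Whether the counting used the strand is not given in the sources used here.

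Elovl7 (ENSMUSG00000021696, chr13:108350938-108422217, plus strand) was the scarcest gene, with 1.312 and 1.636 CPM in HFD-WT and 1.216 and 0.5443 CPM in HFD-KO, from 38, 45, 32 and 13 counts. Both knockout libraries were lower, replicate 2 at 36.9% of the HFD-WT mean and replicate 1 at 82.5%. The log2 fold change of -0.73 was the largest in size of the 10 genes but also the least precise (SE 0.425, 95% interval -1.72 to 0.27, adjusted p = 0.668 by edgeR).

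**Figure D3:**
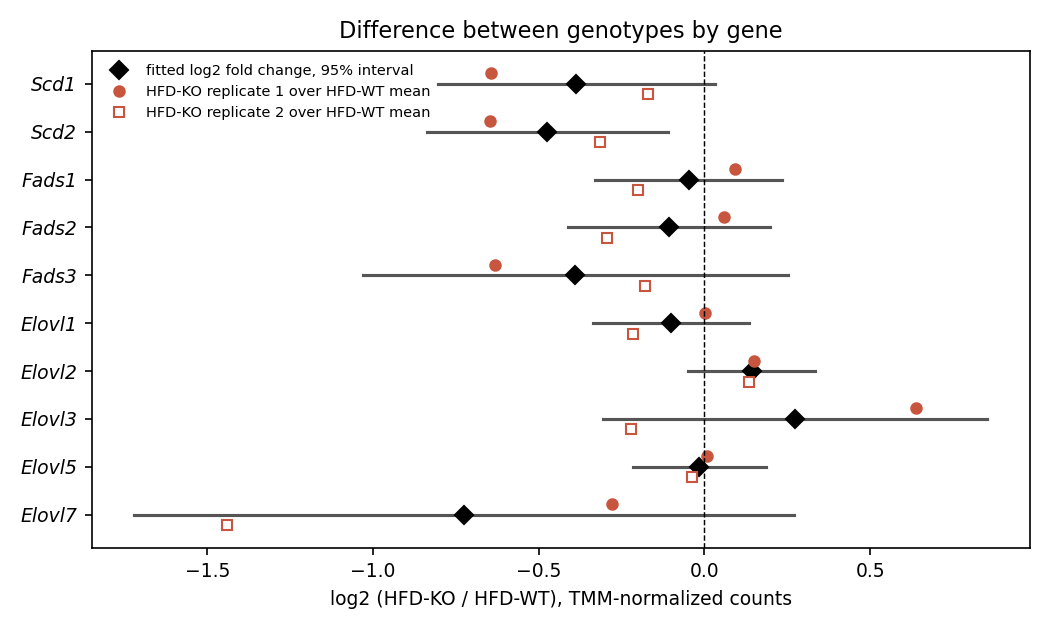
Log2 fold change of HFD-KO over HFD-WT for each gene (diamond, edgeR estimate; line, 95% interval), with each knockout library over the HFD-WT mean beside it (filled circle, replicate 1; open square, replicate 2). The interval of Scd2, from -0.84 to -0.11, is the only one of the 10 that leaves out 0, and the knockout libraries fall on opposite sides of 0 for Fads1, Fads2, Elovl1, Elovl3 and Elovl5.

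Over the 10 genes, 8 had a log2 fold change below 0 (48.4% of all genes tested), with a median of -0.10 against 0.01 over all genes tested. Of the 10, 4 were lower in both knockout libraries without overlap in TMM-scaled CPM (20.3% of all genes tested) and 1 was higher (20.5%). In deposited TPM 6 were lower (30.7% of all genes tested) and 1 was higher (11.4%). The knockout livers differed in which genes stood low in TMM-scaled CPM. In HFD-KO replicate 1, 4 genes (Scd1, Scd2, Fads3 and Elovl7) were below both HFD-WT libraries, as were 35.6% of all genes tested, and 5 were above both (36.4%). In HFD-KO replicate 2, 9 genes were below both HFD-WT libraries (37.7% of all genes tested), and only Elovl2 was above both (38.6%). With the genes chosen by family and all measured in the same 4 libraries, these counts describe those libraries.

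The summed level of the 10 genes was set by Scd1. The sum was 11150 and 10520 CPM in HFD-WT and 7879 and 9692 CPM in HFD-KO, lower in both knockout livers (difference of log2 sums -0.309, exact permutation p = 0.333). Without Scd1 it was 2203 and 2286 CPM in HFD-WT and 2383 and 2051 CPM in HFD-KO, so the knockout livers lay on either side of the HFD-WT livers (difference -0.0215, exact permutation p = 1.0). Scd1 made up 72.87% and 70.55% of the summed TPM in HFD-WT and 60.31% and 71.31% in HFD-KO, and only HFD-KO replicate 1 had a lower share than both HFD-WT libraries. In that library Scd1 was 1.687 times the sum of Fads1, Fads2, Elovl2 and Elovl5, against 2.934 and 2.587 times in HFD-WT and 2.685 times in HFD-KO replicate 2.

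**Figure D4:**
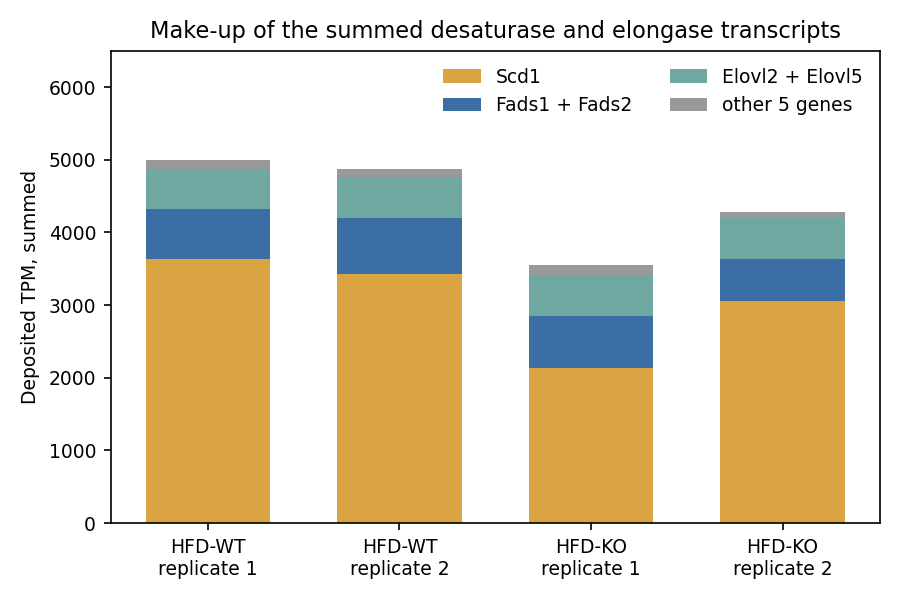
Summed deposited TPM of the 10 genes in each library, stacked by gene group, with the axis from 0. Scd1 makes up 60.31% of the sum in HFD-KO replicate 1 and 70.55% to 72.87% in the other libraries.

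Among the other genes of these families, Elovl6, which extends palmitate to stearate and so supplies the substrate of Scd1, was lower in both knockout livers. It had 37.47 and 35.52 CPM in HFD-WT and 31.15 and 23.41 CPM in HFD-KO (log2 fold change -0.42, SE 0.13, unadjusted p under 0.05, adjusted p = 0.423 by edgeR). Its lowest value was in HFD-KO replicate 2, whereas that of Scd1 was in HFD-KO replicate 1. Fads6 and Degs1 had log2 fold changes of -0.02 and -0.01, and Elovl4 had 1 count in the 4 libraries together.

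The steps around the desaturases and elongases were described by 7 lists of genes, and 0 genes of any list passed an adjusted p under 0.05 by edgeR. DESeq2 called 1 gene of these lists, Thrsp, and edgeR with no filter on low counts called Thrsp and Acsl3. The enzymes of malonyl-CoA supply and fatty acid synthesis had the most genes at an unadjusted p under 0.05, 3 of 7, all lower in HFD-KO (4.73% of all genes tested). Thrsp, a lipogenic activator gene, had 167.7 and 199.3 CPM in HFD-WT and 98.50 and 78.30 CPM in HFD-KO (log2 fold change -1.05, SE 0.13, adjusted p = 0.0611 by edgeR and 1.06e-09 by DESeq2). Fasn, the gene of fatty acid synthase, had 190.8 and 225.7 CPM in HFD-WT and 182.0 and 134.2 CPM in HFD-KO, and Acaca, the gene of an acetyl-CoA carboxylase, had a log2 fold change of -0.23 (adjusted p = 0.546 by edgeR).

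The partners of the elongation cycle and of the desaturases were mostly close to 0. Of the 6 genes of the elongation cycle, 1 had an unadjusted p under 0.05 (8.98% of all genes tested in either direction). This was Hacd4 of the dehydratase family, with 2.003 and 2.290 CPM in HFD-WT and 1.254 and 1.214 CPM in HFD-KO. Of the 5 tested genes of cytochrome b5 electron transfer, which supplies the desaturases, 1 also had a p below that threshold. This was Cyb5r3, with 536.1 and 563.0 CPM in HFD-WT and 496.2 and 400.9 CPM in HFD-KO. The more abundant Cyb5a, cytochrome b5 itself, had a log2 fold change of 0.03 (SE 0.11).

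Acyl-CoA activation had 1 of 8 genes at an unadjusted p under 0.05 (8.98% of all genes tested in either direction). This was the ligase gene Acsl3, with 10.70 and 10.32 CPM in HFD-WT and 16.18 and 14.15 CPM in HFD-KO (log2 fold change 0.53, SE 0.11, adjusted p = 0.233 by edgeR). Peroxisomal chain shortening had 1 of 8, the transporter gene Abcd2, with a log2 fold change of 0.21 (adjusted p = 0.511 by edgeR). The phospholipid acyltransferases had 0 of 6, with Lpcat4 at the smallest p of 0.129 (adjusted p = 0.668 by edgeR).

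The regulators of the pathway had 1 of 14 genes at an unadjusted p under 0.05 (8.98% of all genes tested in either direction). This was Mlxipl, which encodes the carbohydrate-responsive factor ChREBP and had 225.3 and 211.3 CPM in HFD-WT and 279.5 and 243.5 CPM in HFD-KO (log2 fold change 0.26, SE 0.10, adjusted p = 0.493 by edgeR). It was higher in both knockout livers, while Scd1 was lower in both. Srebf1, the gene of the lipogenic factor SREBP-1, had a log2 fold change of -0.11 (SE 0.08, adjusted p = 0.713 by edgeR).

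Apart from Thrsp, the edgeR calls among these neighbouring genes also changed with the knockout library left out, in fits with a lone knockout library. Without HFD-KO replicate 1, Elovl6, Cyb5r3, Fasn and Thrsp had an adjusted p under 0.05 by edgeR. Without HFD-KO replicate 2, Acsl3, Thrsp and 4 regulators, Mlxipl, Srebf2, Insig1 and Insig2, did.

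**Figure D5:**
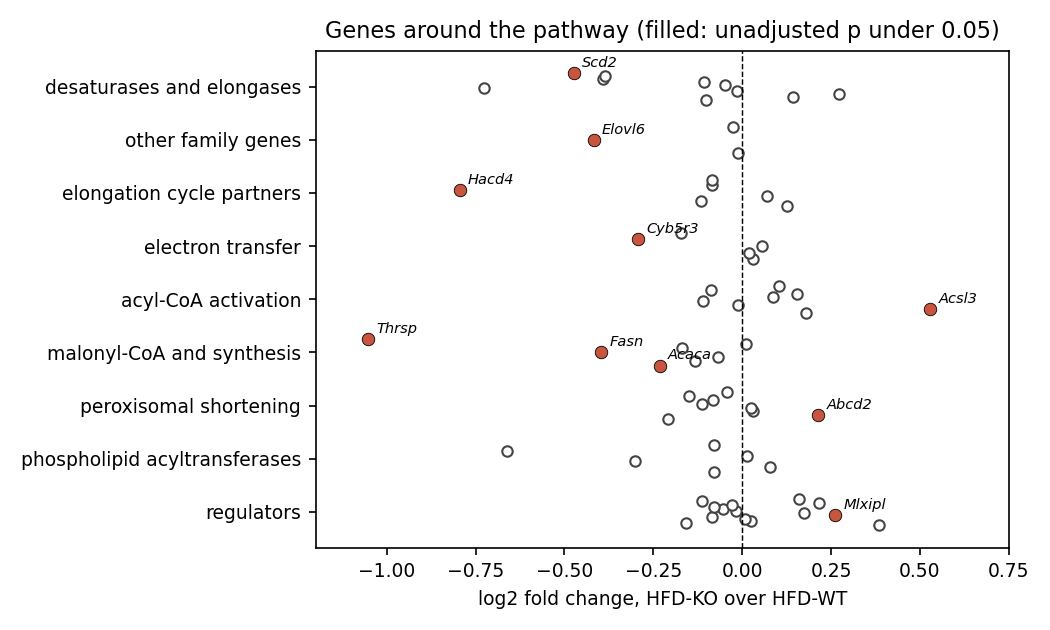
Log2 fold change of HFD-KO over HFD-WT for the 10 genes and for the tested genes of the other family members and the 7 pathway lists (clock genes and cell markers are not shown), with 1 point for each gene and filled, named points for an unadjusted p under 0.05 by edgeR. Of the genes shown, Thrsp lies lowest at -1.05 and Acsl3 highest at 0.53.

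Of the markers of other liver cells, 0 passed an adjusted p under 0.05 by edgeR. DESeq2 called 3 macrophage, 2 stellate cell, 1 endothelial and 1 cholangiocyte marker, and Plin4 and Cidec of the adipocyte list, all lower in HFD-KO. Of the 12967 genes tested, DESeq2 called 60 lower. Macrophage markers were lower at an unadjusted p under 0.05 by edgeR for 9 of 12 genes (4.73% of all genes tested), and their summed level was 490.7 to 614.8 CPM in HFD-WT and 381.4 to 400.5 CPM in HFD-KO. Stellate cell markers were lower for 4 of 8 genes, with sums of 350.7 to 390.2 CPM in HFD-WT and 225.9 to 307.2 CPM in HFD-KO. In bulk RNA, fewer cells of a type and less RNA per cell cannot be told apart.

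At an unadjusted p under 0.05 by edgeR, endothelial markers were lower for 1 of 8 genes and cholangiocyte markers for 1 of 5 (4.73% of all genes tested). These were Lyve1 and Spp1, the same genes that DESeq2 called, so each list rested on a single gene. The endothelial sums were 273.3 to 312.3 CPM in HFD-WT and 265.0 to 283.3 CPM in HFD-KO. Hepatocyte markers were abundant in every library, as the tissue label says. Their sums were 81920 and 81150 CPM in HFD-WT and 82490 and 94680 CPM in HFD-KO, and 1 of 7 genes was higher at that p. Erythroid markers were higher for 3 of 5 genes, against 551 of all 12967 genes tested. Their sums were 600.5 to 757.1 CPM in HFD-WT and 810.7 to 1146 CPM in HFD-KO. B cell markers reached 83.57 CPM in HFD-KO replicate 1 against 10.34 to 11.15 CPM in the other libraries. Most of this was Ighm, with 7.769 and 7.853 CPM in HFD-WT and 73.88 and 7.453 CPM in HFD-KO. Ighm was the 1 of 5 B cell markers higher at that p, and T cell and neutrophil markers had 0 genes at that p.

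Of 8 adipocyte markers, 5 had at most 10 counts in any library, among them Lep with 0 in all 4. Only 3 were tested, with the lipid droplet genes Plin4 and Cidec lower and Cfd higher in HFD-KO. Whether the Plin4 and Cidec reads came from adipocytes was not tested. Plin4 had 229.2 and 229.9 CPM in HFD-WT and 164.9 and 167.8 CPM in HFD-KO. The part of other cell types in the values of Scd2, Fads3 and Elovl7 was not tested.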

How the data were processed

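Per the labels and the methods, polyA RNA of mouse liver was prepared for sequencing by MGI's directional method and read as pairs of 100 bases. The authors used MGI software for trimming and alignment and quantified genes in Partek Genomics Suite with GENCODE annotation. The methods name mm10 and the submitters' processing notes list GRCm39 and mm10, and gene positions in the table are those of GRCm39. The deposited counts are whole numbers without normalization and were the values tested. The deposited TPM values scale counts by length and were used for levels and ratios. The deposited RPKM values gave exon lengths, and the deposited CPM values, a score on an adjusted library size, were not used.

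Counts were fitted in R 4.3.3 with edgeR 4.0.16 (filterByExpr with a minimum count of 10 and total of 15, TMM, quasi-likelihood test, two-sided, no pairing). The common biological coefficient of variation was 0.102. The procedure was tested on simulated data. Alternatives were other scalings and filters, DESeq2 1.42.0, voom of limma 3.58.1, leaving out each library, and a replicate block. Ratios and sums were compared by exact permutation tests in scipy 1.17.1. Intervals from edgeR are 95% intervals, and the floor of 3 counts covers counting error only. Coding sequences and windows of 100 bases came from GENCODE M21.

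The genes and lists were chosen with earlier results of these data known. Named beside the 10 genes are Adarb1, Elovl6 and, from each pathway or clock list, the genes at an unadjusted p under 0.05 (at most 4 by smallest p, or the smallest p where there was none). From the marker lists, Lep is named as a gene without counts, and Plin4, Cidec, Cfd, Lyve1, Spp1 and Ighm as genes at that p. The hepatocyte, macrophage, stellate cell and erythroid markers at that p are given only as counts of genes. Fads6, Degs1, Elovl4, Scd3, Scd4, Cyb5a, Srebf1, Srebf2, Insig1, Insig2, Arntl, Npas2, Cdc20 and Pitx3 were named after their values were seen.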

Additional observations from a re-analysis of the deposited data

How the results depend on the processing

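Of 120 values of the 10 genes under 12 alternative settings, 112 kept their direction and their side of the threshold, 6 reversed and 2 passed it. With 2 libraries a group, single libraries decided the most. With any single library left out, called genes ranged from 0 to 705, called genes among the 10 from 0 to 2 (Scd1 and Elovl3, without HFD-KO replicate 2), those at an unadjusted p under 0.05 from 0 to 3, and those below 0 from 4 to 9. The log2 fold change then ranged from -0.199 to 0.0902 for Fads1, -0.293 to 0.059 for Fads2, -0.213 to 0.00195 for Elovl1, -0.22 to 0.637 for Elovl3, -0.0377 to 0.00763 for Elovl5 and -0.0667 to 3.24 for Ighm. The 10 called genes became 6 with library size alone, upper quartile scaling or a mean of at least 1 CPM, 162 with no filter and 115 with DESeq2. Among the 10 genes of the families, 2 had an unadjusted p under 0.05 with library size alone, no filter, DESeq2 or voom (Scd1 and Scd2). Of all genes tested, 1240 of 12967 did with library size alone and 1487 of 17301 with no filter. With DESeq2 671 of 12967 did, and with voom 1155 of 12967. The causes were not tested. With a replicate block 20 genes were called, 0 of the 10 genes among them, and 1 of the 10 had an unadjusted p under 0.05 (978 of 12967 genes tested). Neither the labels nor the study describe a pairing, so the libraries were taken as unpaired. The deviations of same-numbered libraries had a correlation of -0.0752 over genes. With 2 libraries a group, this cannot show whether such libraries share a batch. Genes with few counts, such as Elovl7 with 13 in 1 library, have wide intervals at this depth.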
